A study of Mus musculus with 6 samples.

Results

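The genes described here encode the machinery that turns prohormones into hormones in the secretory granules of islet cells, together with the proteins that fill these granules. They were chosen by name, as the rows of the count table for Pcsk1, Pcsk2, Cpe, Scg5, Chga, Chgb, Scg2, Scg3, Vgf and Slc30a8, and all 10 were found among the 44713 genes of the table. RNA was taken from pancreatic islets of 3 db/db mice (genotype Lepr-/- in the labels) and 3 db/m mice (labelled wild type), depleted of rRNA and sequenced. Loss of the leptin receptor affects every tissue of a db/db mouse, which grows obese and diabetic, and lean male db/m littermates were the controls. All mice were 10 weeks old and on a normal diet. The labels give the strain as C57BL/6 and the methods of the study give BKS, and the label wild type does not name the mutant Lepr allele that db/m mice usually carry. Islets were isolated by collagenase digestion and a density gradient and used directly, so that β cells, other endocrine cells and attached tissue were measured together.

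Insulin, glucagon and the other islet hormones are made as longer precursors. Prohormone convertases cut a precursor at pairs of basic residues, carboxypeptidase E then removes these residues, and granins help the cargo to condense as the granule ripens. In β cells zinc enters the granule through a dedicated transporter and packs insulin into crystals. Pcsk1 and Slc30a8 are used chiefly by β cells, whereas Pcsk2, carboxypeptidase E and the granins are shared by most endocrine cells of the islet.

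Library totals ran from 15641797 to 20614531 counts, so that 3 counts, taken as the floor, were worth 0.146 to 0.192 CPM (counts divided by library size in the usual unit). Levels below are CPM on library sizes scaled by TMM factors, so they are not on the scale of this floor. The libraries held much exocrine RNA. A list of 36 acinar genes took 71.5% to 77.7% of the counts in db/db mice and 54.3% to 69.9% in db/m mice, and Prss1 and Prss3 of this list rose past the threshold. The TMM factors moved library sizes far: on the scaled sizes the list summed to 723547 to 1286190 CPM in db/db mice and 311595 to 719457 CPM in db/m mice. Endocrine identity was present in all mice, but a list of 14 endocrine marker genes (Isl1, Neurod1, Syp and others) summed to 59.3, 180 and 139 CPM in db/db mice and to 710, 308 and 215 CPM in db/m mice. Neural cells also use granins, and their defining markers were at or near 0, with 0 Sox10 counts in each db/db mouse and 1 to 6 in the db/m mice. Lepr itself had 4 to 68 counts in db/db mice and 8 to 37 in db/m mice. The db allele disturbs splicing of the long form, so the counts of the whole gene do not check the labels. A pair of libraries stood apart: db/m replicate 1 had the highest CPM of all 10 genes, and db/db replicate 1 had the lowest of 9 of them. Duct markers summed to 168 to 216 CPM in db/db and 110 to 177 CPM in db/m libraries, stromal markers to 37.7 to 68.2 and 7.63 to 51.6 CPM, endothelial markers to 12.4 to 26.9 and 19.8 to 45.0 CPM, and leukocyte markers to 13.99 to 63.6 and 3.68 to 38.6 CPM, all with overlap. Immediate-early genes, which respond within minutes to stimulation or tissue handling, summed to 113 to 224 CPM in db/db and 1132 to 1882 CPM in db/m libraries, and 8 of the 16 tested passed the threshold, all lower. The part of these cells and genes in the results below was not tested. In whole islets, fewer cells of a type and less RNA per cell cannot be told apart.

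Short promoter stretches are shown first because several of these genes are textbook targets of the cAMP response element (CRE), to which CREB-family factors bind. The RefSeq promoter windows (GRCm38.p6, 250 bases before to 50 bases after the start of the gene) were matched for 7 of the 10 genes. Cpe, Vgf and Slc30a8 were not matched. The letters TGACGT, read on both strands, were found in 5 of the 7 windows, against 13.8% of the 8975 tested genes with a window. The full palindrome TGACGTCA, which contains the shorter letters, was found in 3 of the 7, against 3.74% of the same genes. In the following stretches of 30 bases, read 5′ to 3′ in the direction of the gene, capitals mark the match and distances are from the RefSeq start. The GENCODE positions given further below have other starts, and by them the stretches of Chgb and Scg2 lie inside the gene.
Pcsk1, chr13:75089768-75089797, forward strand, first capital 78 bases before the start: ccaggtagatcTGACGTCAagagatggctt
Chgb, chr2:132781559-132781588, forward strand, first capital 72 bases before the start: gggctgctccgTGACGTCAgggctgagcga
Scg2, chr1:79440076-79440105, reverse strand, first capital 68 bases before the start: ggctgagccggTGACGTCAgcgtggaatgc
Chga, chr12:102554886-102554915, forward strand, first capital 44 bases before the start: gggcggtcctaTGACGTaatttcctgggtg
Scg5, chr2:113829248-113829277, reverse strand, first capital 175 bases before the start: aaggaggtaaaTGACGTtcataggggtcga
A further match of the shorter letters lies in the Pcsk1 window 50 bases before the start, and another in the Scg5 window 39 bases after it. The windows of Pcsk2 and Scg3 held none. The 3 genes with the full palindrome were Pcsk1, Scg2 and Chgb, whose levels are described below. Pcsk1 fell in db/db islets, and Scg2 was lower without passing the threshold. The mean level of Chgb was nearly the same in both groups, with a wide interval for its difference. The TATA letters TATAAA matched only in Chga (8.38% of tested genes with a window), and there they lay 5 to 10 bases after the RefSeq start. TAATTA and CAGATG, cores read by homeodomain and NeuroD1 factors, matched in none of the 7 (3.06% and 13.4% of tested genes). A match of letters is a description and not a binding site.

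The comparison of db/db with db/m islets asks how the transcripts of hormone processing differ in diabetic islets. Slc30a8 and Pcsk1, the granule zinc transporter and the convertase PC1/3, fell in db/db islets, while the other 8 genes did not pass the threshold (edgeR's quasi-likelihood test, adjusted p under 0.05 over 12760 genes). The 10 genes did not move as a block: the log2 fold change (db/db over db/m) ran from -4.49 for Slc30a8 to 0.12 for Vgf. The 2 called genes of 10 stand against 0.486% of all tested genes called lower and 0.133% called higher. For 4 of the 10 the levels of both groups were fully separate, all lower in db/db mice, against 12.6% of tested genes lower and 8.53% higher. At an unadjusted p under 0.05, 5 of the 10 were lower, against 9.89%, and none was higher, against 5.04%. The genes were chosen with earlier results of these data known, so these shares are a description and not a test. The median log2 fold change of the 10 genes was -1.12, where that of all tested genes was -0.00093. With unscaled library sizes the median of all genes moved to -0.59 and that of the 10 genes to -1.76, so that the distance between them hardly altered.

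**Figure D1:**
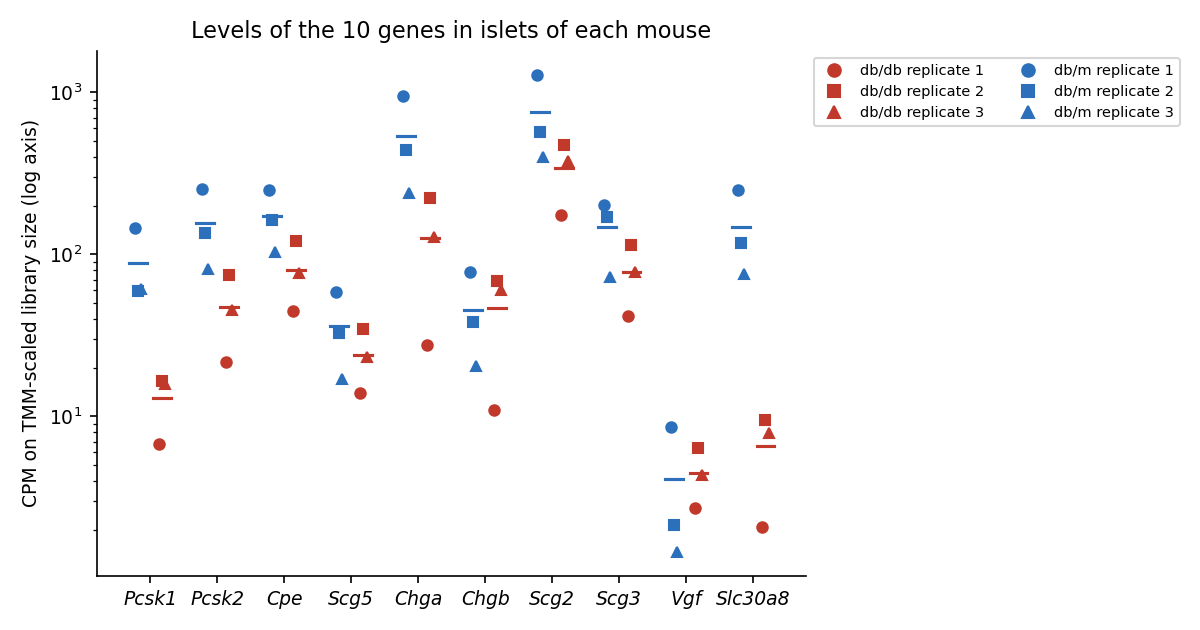
Level of each of the 10 genes in the islets of each mouse, in CPM on TMM-scaled library size (log axis), with db/db mice in red and db/m mice in blue, marker shapes for replicates 1 to 3 and short lines for group means. For Slc30a8 the db/db mice lie between 2.09 and 9.57 CPM and the db/m mice between 75.4 and 252 CPM, whereas the groups of Chgb and Vgf overlap.

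Slc30a8 encodes ZnT8, the transporter that carries zinc into the insulin granule. It lies on the forward strand of chromosome 15 of GRCm38 from 52295553 to 52335798. Its counts were 26, 160 and 118 in db/db and 6856, 2017 and 1392 in db/m libraries, or 2.09, 9.57 and 7.94 CPM against 252, 117 and 75.4 CPM. The lowest db/m mouse was above the highest db/db mouse by a wide margin. The mean level was 6.53 ± 3.93 CPM in db/db and 148 ± 92.1 CPM in db/m islets (SD, n = 3 each). The difference on the log2 scale was -4.49 (standard error 0.64, adjusted p = 0.0246 from edgeR), a 22.5-fold lower level, and 0.212% of all tested genes had a lower log2 fold change. Without replicate 1 of both groups it was -3.42 (adjusted p = 0.00443 from edgeR), and without one mouse at a time it lay between -4.86 and -3.85. The call did not hold with unscaled library sizes (adjusted p = 0.0915 from edgeR) or without db/db replicate 1 (0.0648), 2 (0.0966) or 3 (0.119) or db/m replicate 2 (0.0587), nor in a further fit given in the closing section. Over all 16 alternatives the adjusted p lay between 3.6e-13 and 0.119, and 10 of them passed the threshold.

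Pcsk1 and Pcsk2 encode the prohormone convertases PC1/3 and PC2. PC1/3 makes the first cuts in proinsulin, and PC2 completes them and releases glucagon from its precursor in α cells. Pcsk1 (chromosome 13, forward strand, 75089826 to 75134861) had 6.74, 16.4 and 15.9 CPM in db/db mice and 145, 59.9 and 61.6 CPM in db/m mice, without overlap. The difference on the log2 scale was -2.77 (standard error 0.46, adjusted p = 0.0414 from edgeR), a 6.82-fold lower level, and it was -1.87 (adjusted p = 0.0138 from edgeR) without replicate 1 of both groups. Of the 16 alternatives 8 passed the threshold, and their adjusted p from edgeR or DESeq2 ran from 1.9e-08 to 0.257. The call was lost with unscaled library sizes (0.124), with upper-quartile factors (0.0548), with the endocrine score as a covariate (0.257), without db/db replicate 1 (0.154), 2 (0.137) or 3 (0.165), without db/m replicate 2 (0.0750), and in a further fit given in the closing section.
Pcsk2 (chromosome 2, forward strand, 143546156 to 143816285) had 21.6, 74.4 and 45.5 CPM in db/db mice and 253, 135 and 81.3 CPM in db/m mice. The groups did not overlap, although the highest db/db mouse came close to the lowest db/m mouse. The log2 fold change of -1.73 (standard error 0.52) did not pass the threshold over all genes (adjusted p = 0.163 from edgeR), whereas DESeq2 gave an adjusted p of 0.0164, in a range of 0.000775 to 0.921 among all alternatives. Without replicate 1 of both groups the log2 fold change was -0.81. Pcsk2os1 and Pcsk2os2 lie on the other strand of Pcsk2, and 3.69% of the 50-base stretches of its transcripts also occur in transcripts of other genes. Whether the counting used the strand is not stated in the sources used here.

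Within a library the ratio of both convertases does not depend on how libraries are scaled or on the share of acinar reads. It can depend on the mix of endocrine cells, because Pcsk1 is used chiefly by β cells and Pcsk2 by most endocrine cells. The part of this mix was not tested. The ratio of Pcsk1 to Pcsk2 counts was 0.312, 0.221 and 0.349 in db/db mice and 0.575, 0.442 and 0.758 in db/m mice. All db/db mice lay below all db/m mice, and the mean log2 ratio differed by -0.999 between the groups (p = 0.1 in a two-sided exact permutation test, which cannot go lower with 3 mice against 3). Without one mouse at a time this difference lay between -1.19 and -0.80.

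Scg5 encodes 7B2, the small chaperone that PC2 needs to become active. Scg5 (chromosome 2, reverse strand, 113776362 to 113829121) had 13.9, 34.7 and 23.3 CPM in db/db mice and 58.4, 32.9 and 17.1 CPM in db/m mice. The groups overlapped, and the log2 fold change was -0.59 (95% interval -1.63 to 0.45, adjusted p = 0.577 from edgeR), -0.04 without db/m replicate 1 and 0.26 without replicate 1 of both groups. The ratio of Scg5 to Pcsk2 counts, chosen after its values were seen like the ratios of other pairs below, was 0.643, 0.467 and 0.513 in db/db mice and 0.231, 0.243 and 0.210 in db/m mice. It was 2.36-fold higher in db/db mice, with no overlap (p = 0.1 in the two-sided exact permutation test).

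Cpe encodes carboxypeptidase E, which trims the basic residues that the convertases leave behind. Cpe (chromosome 8, reverse strand, 64592542 to 64693054) had 44.8, 121 and 76.7 CPM in db/db mice and 249, 163 and 104 CPM in db/m mice. Only db/db replicate 2 reached into the range of the db/m mice. Its log2 fold change came to -1.09 (standard error 0.42, 95% interval -2.05 to -0.13, adjusted p = 0.273 from edgeR), and it was -0.40 without replicate 1 of both groups. Relative to Cpe, Slc30a8 was far lower in db/db mice, with count ratios of 0.0466, 0.0793 and 0.104 against 1.01, 0.719 and 0.724 in db/m mice, an 11.1-fold difference (p = 0.1 in the two-sided exact permutation test). The ratio of Slc30a8 to Cpe can likewise depend on the mix of endocrine cells, whose part was not tested.

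The granins are acidic proteins of the granule core, and they showed a wide spread. Chga (chromogranin A, chromosome 12, forward strand, 102554969 to 102565028) had 27.6, 224 and 128 CPM in db/db mice and 945, 439 and 241 CPM in db/m mice. The groups did not overlap, but db/db replicate 2 and db/m replicate 3 were close. The log2 fold change of -2.10 (standard error 0.72) did not pass the threshold in edgeR (adjusted p = 0.221), and it was -0.91 without replicate 1 of both groups. DESeq2 gave an adjusted p of 0.0237 for it, in a range of 0.000922 to 0.776 among all alternatives.
Chgb (chromogranin B, chromosome 2, forward strand, 132781278 to 132795079) had 11, 68.6 and 60.0 CPM in db/db mice and 78.4, 38.1 and 20.4 CPM in db/m mice. On the log2 scale the difference came to 0.03 (95% interval -1.42 to 1.47, adjusted p = 0.990 from edgeR), an interval that leaves room for a sizeable difference in either direction. It was -0.61 with unscaled library sizes, 1.18 without replicate 1 of both groups (adjusted p = 0.177 from edgeR), 1.41 with the acinar score as a covariate (adjusted p = 0.310) and 2.45 with the endocrine score (adjusted p = 0.108). The ratio of Chga to Chgb counts was nearly constant among db/m mice, at 12.1, 11.5 and 11.8, and was 2.51, 3.27 and 2.13 in db/db mice. This 4.55-fold difference had no overlap between groups (p = 0.1 in the two-sided exact permutation test).

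Scg2 and Scg3 encode secretogranins II and III, and secretogranin III tethers chromogranin A to the granule membrane. Scg2 (chromosome 1, reverse strand, 79434669 to 79440120), the most abundant of the 10 genes per length, had 174, 471 and 376 CPM in db/db mice and 1288, 571 and 397 CPM in db/m mice. Scg3 (chromosome 9, reverse strand, 75643189 to 75684056, with Gm37871 on the other strand) had 41.4, 114 and 78.2 CPM against 202, 170 and 72.1 CPM. In both genes at least 1 db/db mouse lay above the lowest db/m mouse. The log2 fold changes were -1.14 (95% interval -2.30 to 0.01, adjusted p = 0.338) for Scg2 and -0.93 (95% interval -1.95 to 0.10, adjusted p = 0.377) for Scg3 in edgeR. Without db/m replicate 1 they were -0.49 and -0.62, and without replicate 1 of both groups -0.15 and -0.29. The ratio of Scg2 to Scg3 counts overlapped between the groups, at 4.14 to 4.81 in db/db mice and 3.36 to 6.38 in db/m mice (p = 0.6 in the two-sided exact permutation test).
Vgf, whose product is cut into several bioactive peptides, was the least abundant of the 10 genes. Vgf (chromosome 5, forward strand, 137026392 to 137033351) had 34, 107 and 65 counts in db/db mice and 236, 37 and 27 in db/m mice, or 2.73, 6.40 and 4.37 CPM against 8.66, 2.15 and 1.46 CPM. The db/db mice lay between db/m replicate 1 and the other db/m mice. Its log2 fold change came to 0.12 (95% interval -1.30 to 1.55, adjusted p = 0.942 from edgeR), -0.65 with unscaled library sizes, 1.95 with the acinar score as a covariate, 2.63 with the endocrine score, and 1.34 without db/m replicate 1 (unadjusted p = 0.0190 and adjusted p = 0.331 from edgeR), in a range of adjusted p from 0.0750 to 0.956.

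**Figure D2:**
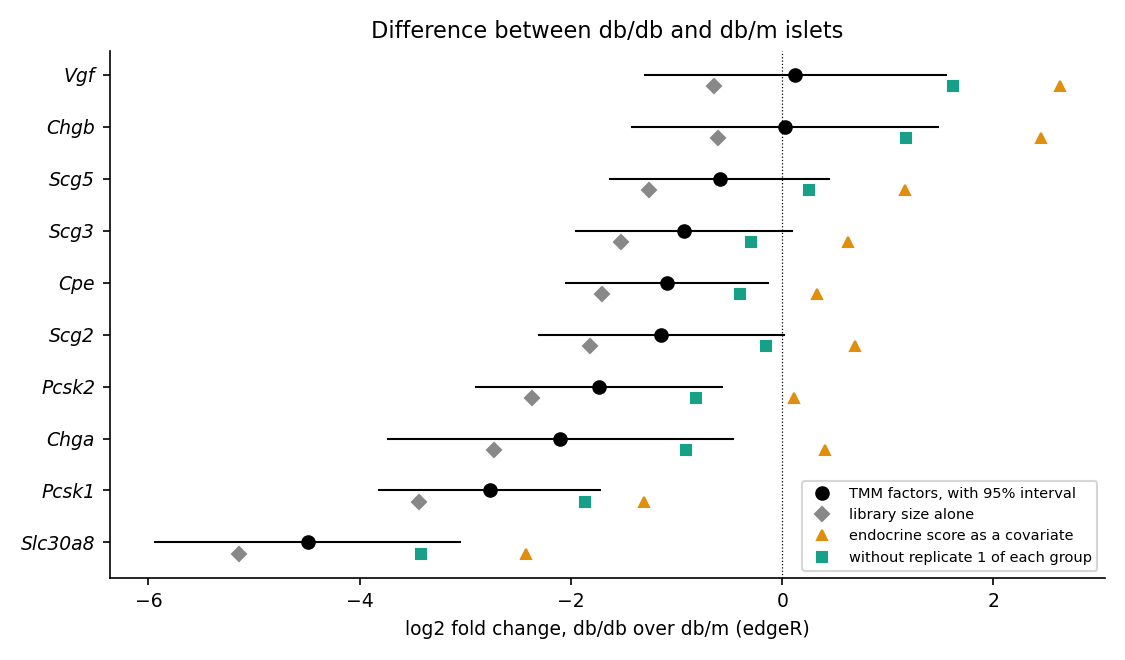
Log2 fold change of each gene between db/db and db/m islets from edgeR, with TMM factors and the 95% interval (black), with library size alone (grey), with the endocrine score as a covariate (orange) and without replicate 1 of both groups (green). Slc30a8 and Pcsk1 stay below 0 in all 4 settings, whereas each of the other genes lies on both sides of 0. Pcsk2, Cpe, Chga, Scg2 and Scg3 are above 0 only with the endocrine score.

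Between genes, levels were compared per kilobase of exon (GENCODE M21). In db/m mice Scg2 (299 ± 188 CPM per kb, SD, n = 3) and Chga (288 ± 193) came first, followed by Cpe (81.3 ± 34.3), Slc30a8 (75.2 ± 46.7), Scg3 (62.1 ± 28.3), Pcsk2 (33.2 ± 18.6), Scg5 (29.9 ± 17.3), Pcsk1 (17.7 ± 9.71), Chgb (16.7 ± 10.8) and Vgf (1.39 ± 1.35). The ranges of the 3 mice overlapped between neighbours in this order, apart from the steps from Chga to Cpe and from Chgb to Vgf. In db/db mice Scg2 was again first (135 ± 60.2 CPM per kb, SD, n = 3), followed by Chga (67.1 ± 52.1), Cpe (38.1 ± 18) and Scg3 (32.6 ± 15.1). Scg5 (19.9 ± 8.64) and Chgb (17.0 ± 11.3) now stood above Pcsk2 (9.98 ± 5.60), and Slc30a8 (3.31 ± 2.0) and Pcsk1 (2.58 ± 1.08) stood near the bottom, above Vgf (1.53 ± 0.623), and all neighbours overlapped in range. Slc30a8 thus moved from place 4 to place 8 in the order, and Chgb from place 9 to place 6.

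The sum of all 10 genes was 346, 1139 and 816 CPM in db/db mice and 3479, 1729 and 1071 CPM in db/m mice, with overlap (two-sided exact permutation test of log2 values, p = 0.2). The difference in mean log2 was -1.44, and it was -0.50 without replicate 1 of both groups. The makeup of this sum was steadier than its size. Slc30a8 made up 7.23%, 6.79% and 7.03% of the summed counts in db/m mice and 0.603%, 0.840% and 0.973% in db/db mice. Chga made up 22.5% to 27.2% in db/m mice and 7.98% to 19.7% in db/db mice, and Pcsk1 3.46% to 5.75% against 1.44% to 1.95%. In the other direction, Scg2 made up 33% to 37.0% in db/m mice and 41.3% to 50.4% in db/db mice, and Chgb 1.91% to 2.25% against 3.18% to 7.36%. Scg5 (1.60% to 1.90% against 2.86% to 4.01%) and Vgf (0.125% to 0.249% against 0.536% to 0.788%) also had larger shares in each db/db mouse. The shares of 8 of the 10 genes did not overlap between the groups, 4 lower and 4 higher in db/db mice, and those of Cpe and Scg3 did. For each of the 8 the two-sided exact permutation test gave p = 0.1, the smallest p possible, and 0.125 after Benjamini-Hochberg adjustment over the 10 genes. Shares of one sum are tied to each other, and no such background exists for other genes.

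**Figure D3:**
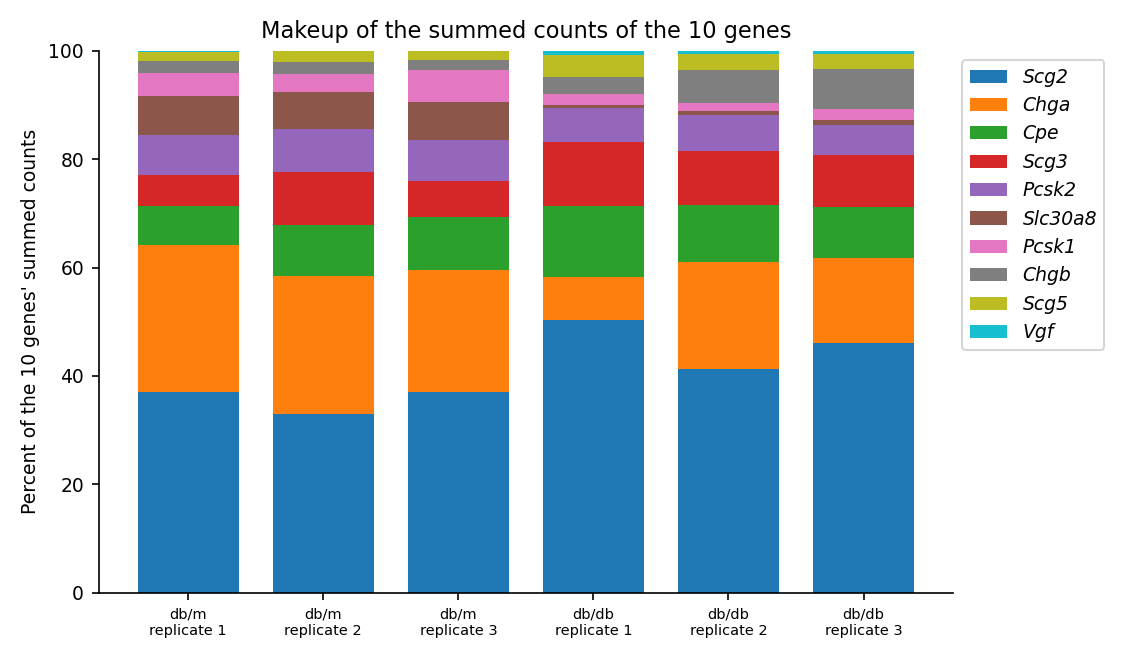
Percent of the summed counts of the 10 genes taken by each gene, as stacked bars from 0 to 100 for the 3 db/m and the 3 db/db mice. Slc30a8 takes 6.79% to 7.23% in db/m mice and 0.603% to 0.973% in db/db mice, while Scg2 takes more in each db/db mouse.

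Because all 10 genes are used by endocrine cells, their levels were also set against the 14 endocrine markers of the same library, a scale chosen after the data were seen. The mean log2 CPM of these markers was 1.68, 3.02 and 2.78 in db/db mice and 4.83, 3.98 and 3.37 in db/m mice (p = 0.1 in the two-sided exact permutation test), and 13 of the 14 had a log2 fold change below 0. On this scale the median of all tested genes was 1.56 higher in db/db mice, so that only the lower side stands out from the background. Slc30a8 was lower in each db/db mouse, at -0.02 ± 0.45 (SD, n = 3) on the log2 scale against 2.97 ± 0.15 (SD, n = 3), and Pcsk1 likewise, at 1.11 ± 0.10 against 2.28 ± 0.33. These were 2 of the 10 genes, against 1.46% of tested genes that were lower without overlap. Pcsk2 (a difference of -0.18) and Chga (-0.76) overlapped between the groups. The remaining 6 genes were higher in each db/db mouse, by 0.45 for Cpe, 0.49 for Scg2, 0.65 for Scg3, 1.05 for Scg5, 1.43 for Chgb and 2.04 for Vgf, against 60% of all tested genes. For each of the 8 genes without overlap the two-sided exact permutation test gave p = 0.1. With the endocrine score as a covariate in edgeR, Slc30a8 still passed the threshold (log2 fold change -2.42, adjusted p = 0.0454) and Pcsk1 did not (-1.30, adjusted p = 0.257). The score did not overlap between the groups, so the genotype and the endocrine share cannot be told apart fully in this fit. With the acinar score as a covariate both passed it, at -3.26 (adjusted p = 0.00663 from edgeR) for Slc30a8 and -1.82 (adjusted p = 0.0305) for Pcsk1. The acinar share of counts did not overlap between the groups either, and this share cannot be told apart fully from the genotype. The covariate itself was the mean log2 level of the acinar genes, which is not the same quantity as their share.

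**Figure D4:**
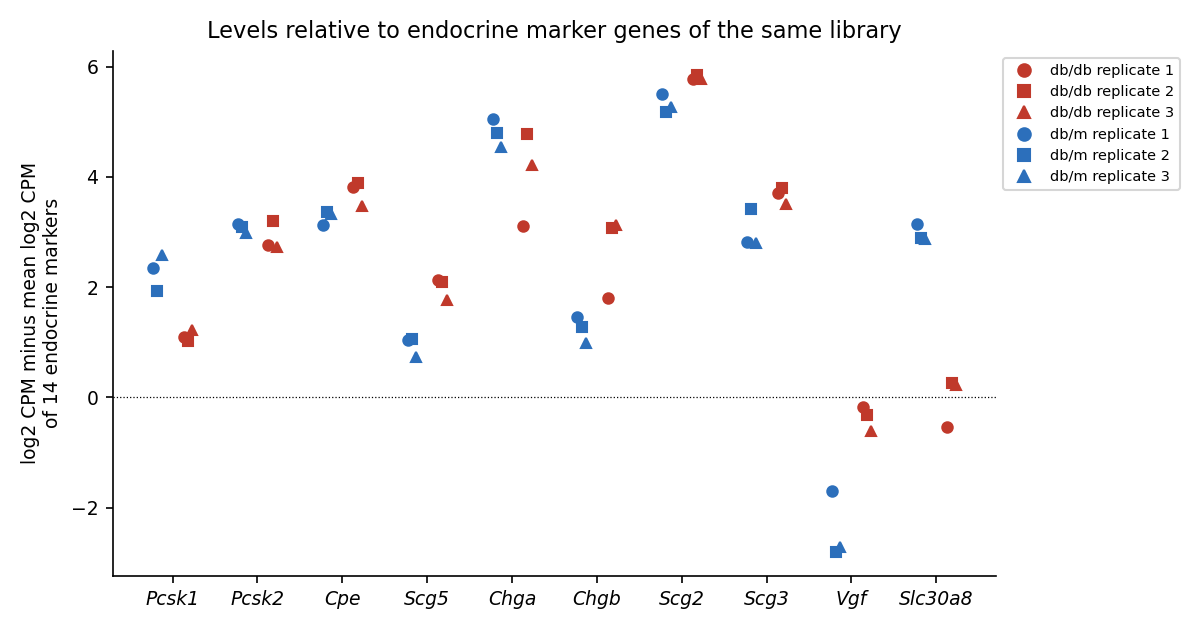
Log2 CPM of each gene minus the mean log2 CPM of 14 endocrine marker genes in the same library, for each db/db (red) and db/m (blue) mouse, with marker shapes for replicates. Slc30a8 and Pcsk1 are lower in each db/db mouse, against 1.46% of all tested genes. Cpe, Scg2, Scg3, Scg5, Chgb and Vgf are higher in each, against 60% of all tested genes.

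The hormone genes encode the cargo of these granules. Ins1 had 240, 580 and 554 CPM in db/db mice and 6616, 1614 and 1868 CPM in db/m mice, with a log2 fold change of -2.88 (adjusted p = 0.0870 from edgeR). Ins2 had 1770, 4484 and 3886 CPM against 14909, 4080 and 4815 CPM, with overlap (-1.23, adjusted p = 0.388 from edgeR). The log2 fold changes of the other hormone genes lay between -0.99 for Iapp, the amylin gene, and -0.51 for Gcg, the glucagon gene, with Ppy at -0.93, Sst at -0.73 and Pyy at -0.60. Each hormone gene was highest in db/m replicate 1. Sst had 37.7, 92.7 and 53.9 CPM in db/db mice and 241, 32.0 and 32.9 CPM in db/m mice. Pyy had 21.5, 49.7 and 33.2 CPM against 128.5, 14.6 and 14.6 CPM. For both, every db/db mouse lay above db/m replicates 2 and 3. Gcg had 286, 536 and 299 CPM against 1126, 308 and 167 CPM. None of the 7 hormone genes passed the threshold, and only Ins1 had groups that did not overlap. Among the 11 β-cell markers 3 passed the threshold, all lower (Mafa, Nkx6-1 and Slc2a2), with a list median of -2.78. The medians were -0.90 over the 3 tested α-cell markers and -0.73 over the 5 δ- and PP-cell markers, with none past the threshold. Summed, the α-cell markers had 324, 599 and 345 CPM in db/db mice and 1247, 398 and 236 CPM in db/m mice. The δ- and PP-cell markers summed to 106, 274 and 131 CPM against 647, 125 and 106 CPM. Both sums overlapped (p = 0.8 each in the two-sided exact permutation test of log2 values) and were highest in db/m replicate 1. The part of these hormone and marker genes in the differences of Pcsk1 and Slc30a8 was not tested.

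Beyond the 10 genes, 70 genes of 6 lists for processing enzymes, granule proteins, zinc transport, granule formation and the proton pump were tested. None passed the threshold in edgeR, against 11 at an unadjusted p under 0.05, of which 10 were lower and 1 was higher. Over all tested genes 9.89% were lower and 5.04% higher at this p, so that the count of these lists is near the background. DESeq2 called 4 of the 70, among them Sv2a, Baiap3 and Atp6ap2. Among other convertases and their inhibitors (7 tested, median log2 fold change -0.40), Pcsk1n, which encodes the PC1/3 inhibitor proSAAS, had 13.1, 35.0 and 21.5 CPM in db/db mice and 146, 48.6 and 16.4 CPM in db/m mice. These groups overlapped (log2 fold change -1.60, standard error 0.68, adjusted p = 0.317 from edgeR). Without db/m replicate 1 the value was -0.47, and without replicate 1 of both groups it was -0.16. Furin, which cuts precursors earlier in the Golgi, had a log2 fold change of -0.05 and was named after its values were seen, as were Pam, the other zinc transporters and the called markers.

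Of the enzymes that trim or modify peptides, 9 were tested (median -0.12), and none had an unadjusted p under 0.05. Pam, which amidates peptide ends, had a mean of 95.4 ± 29.5 CPM in db/db mice and 95.6 ± 33.8 CPM in db/m mice (SD, n = 3 each). The 95% interval of its log2 fold change was -0.77 to 0.76, which leaves room for a difference in either direction. Of the granule membrane and cargo proteins 12 were tested (median -0.75), and 4 were lower at an unadjusted p under 0.05, where 9.89% of all tested genes were. They were Resp18 (log2 fold change -1.03, adjusted p = 0.330), Sv2a, a vesicle glycoprotein (log2 fold change -2.33, adjusted p = 0.163), Baiap3, a relative of the Munc13 priming factors (-2.64, adjusted p = 0.164), and Scgn, the calcium sensor secretagogin (-1.45, adjusted p = 0.284), all from edgeR. Only Sv2a and Baiap3 had groups without overlap, and their log2 fold changes were -1.11 and -1.18 without db/m replicate 1. Resp18 was then at -0.42 and Scgn at -0.98.
The proton pump acidifies the granule so that the convertases can work. Of its 18 tested genes 4 were lower and 1 higher at an unadjusted p under 0.05 (median -0.19), against 9.89% lower and 5.04% higher among all tested genes. The smallest p-values belonged to Atp6ap2 (log2 fold change -0.83, adjusted p = 0.140), Atp6v1b2 (-0.83, adjusted p = 0.190) and Atp6v0a1 (-0.83, adjusted p = 0.271), all from edgeR and without overlap between groups. The other lower gene was Atp6v1a (-0.60, adjusted p = 0.295), and the higher one was Rnasek (0.68, adjusted p = 0.325). Without db/m replicate 1, Atp6v1b2 was at -0.51 and Atp6v0a1 at -0.42. Granule formation genes (14 tested, median -0.03) and other zinc transporters (10 tested, median 0.09) had none with an unadjusted p under 0.05. Slc30a5 and Slc30a7, which bring zinc into the early secretory pathway, had log2 fold changes of 0.14 and -0.07. The 95% intervals were -0.49 to 0.77 and -0.72 to 0.58.

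**Figure D5:**
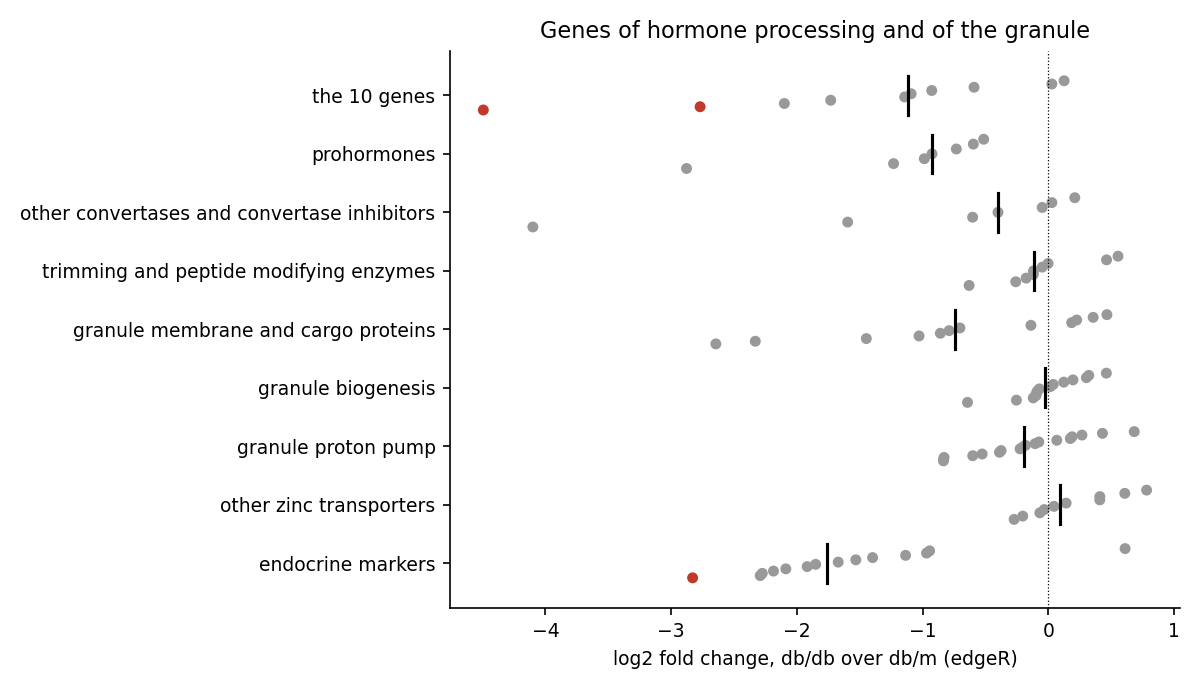
Log2 fold change (db/db over db/m, edgeR) of each tested gene of the 10, of the 7 hormone genes, of the 6 lists of processing and granule genes and of the endocrine markers, with red points for genes past the adjusted threshold of 0.05, grey points for the rest and a black line at each list's median. In the lists drawn, the red points are Slc30a8 and Pcsk1 among the 10 genes and Neurod1 among the endocrine markers.

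The genes whose profile over the 6 mice was most like the mean profile of the 10 were found by the root mean square distance of log2 CPM values, each centred on its own mean, among 7350 genes with a mean of at least 5 CPM. They were Slc16a10 (0.0769), an amino acid transporter, Cplx2 (0.105), a complexin of the exocytosis machinery, Dtx3 (0.126), Rundc3a (0.128) and Tor3a (0.130). Their log2 fold changes lay between -1.68 and -1.37. Of the 10 genes Pcsk2 (0.165) and Scg2 (0.223) were closest to the common profile, and Slc30a8 (1.55) was farthest from it among those with at least 5 CPM.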

How the data were processed

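Islet RNA of 3 db/db and 3 db/m mice was measured by rRNA-depleted RNA-seq. The authors filtered the reads, mapped them to mm10 and deposited raw counts per gene symbol, without normalization. The paper's methods name TopHat for mapping, whereas the submitters' processing notes name HISAT2 2.0.4. The counting program, annotation and use of strand are not given in the sources used here.

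Groups were compared by the quasi-likelihood test of edgeR 4.0.16 (R 4.3.3) after filterByExpr and TMM scaling, and p-values of the 12760 genes left were adjusted by the Benjamini-Hochberg method (threshold 0.05). A standard error is the size of the log2 fold change over the root of F. For single values of each mouse, two-sided exact permutation tests were used. Log2 CPM used a prior count of 2, and covariate scores used mean log2(CPM + 1). DESeq2 1.42.0 and the other alternatives are described in the closing section. The 10 genes and the lists were chosen with earlier results of these data known. Genes outside the 10 were named when past the threshold, or otherwise as the up to 3 genes of a list with the smallest unadjusted p under 0.05. Hormone genes were all named, exceptions are stated, and a gene that met this rule is not reported here. Nothing states how the replicates of a group are related beyond being separate mice, and their counts differed beyond sampling noise, with a chi-square of 26.5 to 147 for each degree of freedom. Positions and exon lengths come from GENCODE M21 (GRCm38) and promoters from RefSeq. Figures were drawn with matplotlib 3.10.9. The circRNA and qRT-PCR data were not analysed here.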

Additional observations from a re-analysis of the deposited data

How the results depend on the processing

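Many single-gene calls changed with the settings at 3 mice per group. The number of genes past the threshold (79, of them 2 of the 10 genes) was 21 (0) with library size alone, 52 (1) with upper-quartile factors, 707 (4) with DESeq2, 888 (4) with no filter on low counts, 17 (1) with the endocrine score as a covariate and 16 (0) in a replicate block fit. Without one mouse at a time it lay between 10 and 333, and between 0 and 2 for the 10 genes, with 17, 10 and 12 genes (0 of the 10 each time) without db/db replicates 1, 2 and 3, and 52, 30 and 333 without db/m replicates 1, 2 and 3 (0 of the 10 without db/m replicate 2). Of the other 70 genes, DESeq2 called 4, no filter 5, and the fits without one mouse 0 to 1. Slc30a8 and Pcsk1 had a log2 fold change below 0 in all 16 alternatives. The replicate numbers share no stated origin, and same-numbered mice deviated in opposite directions (correlations across genes of -0.51, -0.15 and -0.32), with no mouse correlating best with its own number. The block ended the calls of Slc30a8 (adjusted p = 0.110 from edgeR) and Pcsk1 (0.2).

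Signs turned in these settings, and the cause was not tested. With the endocrine score as a covariate, log2 fold changes were 0.11 for Pcsk2, 0.33 for Cpe, 1.16 for Scg5, 0.40 for Chga, 0.69 for Scg2, 0.62 for Scg3, 1.30 for Pcsk1n, 0.68 for Resp18, 0.31 for Sv2a, 0.17 for Baiap3 and 0.63 for Scgn. With the acinar score they were 0.51 for Scg5, 0.0355 for Scg2, 0.38 for Pcsk1n and 0.0763 for Resp18. With library size alone, Chgb was at -0.61 and Vgf at -0.65. Without one mouse at a time, Chgb lay between -0.35 and 0.69 and Vgf between -0.25 and 1.34. Without replicate 1 of both groups Scg5 was at 0.26, and the summed level of the 10 genes differed by -0.50 in place of -1.44. Without one mouse at a time this sum differed by -1.84 to -0.95, and the log2 ratio of Pcsk1 to Pcsk2 by -1.19 to -0.80.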
